A study of Mus musculus with 6 samples.

Results

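The cell cycle and DNA replication genes described here are 40 mouse genes picked by name, all of them among the 37991 Ensembl gene identifiers of the deposited count tables. By role, 23 act in mitosis and the G2 phase before it, 12 in the S phase, when DNA is copied, and 5 in the passage from G1 into S. They were compared between serrated polyps, lesions whose crypts have a saw-toothed outline, and the normal distal cecum around them. RNA was sequenced from both tissues of mice 1119, 1192 and 1199, so 6 libraries form 3 pairs, collected after 60 weeks. All 3 animals are of the strain HBUS, known to carry transgenes for US28, a chemokine receptor of viral origin, and for HB-EGF, a ligand of the EGF receptor, both expressed in gut epithelial cells. Polyp and surrounding tissue both come from transgenic animals, and no group without the transgenes was analysed here. Both are bulk tissue, in which fewer cells of a type and less RNA per cell cannot be told apart.

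A dividing cell passes through G1, S, G2 and mitosis in order, and many of the genes it needs are transcribed only in their own phase. D-type and E-type cyclins drive the cell out of G1 and release E2F factors from the retinoblastoma proteins. E2F factors then switch on genes for the replication fork and for nucleotide supply, and genes for the spindle and chromosome segregation follow in G2. In the intestine this cycling takes place mostly in the lower crypt, while cells that move towards the surface leave the cycle. Antibodies or probes against Mki67, Pcna and Top2a are in wide use as labels of dividing cells.

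The roles differ in promoter sequence, which is shown because genes that are switched on in the same phase share short motifs. RefSeq promoters (GRCm38.p6, 250 bases before to 50 after the start of the gene) were found for 31 of the 40 genes. On both strands, 3 motifs were searched: TTTGAA, the letters of the cell cycle homology region (CHR) known from mitotic genes; CCAAT, the CCAAT box; and TTCCCGC or TTGGCGC, forms of the E2F site. A reversed CCAAT box (ATTGG) can share bases with the E2F form TTGGCGC, and each match is a description of the sequence, not a site. Genes were counted, and a gene with more than 1 promoter counted if any of them held the motif. The CHR letters were found for 14 of 18 mitosis genes (77.8%), 1 of 11 S phase genes (9.09%) and 20.2% of all 27025 genes with a promoter. The E2F letters went the other way, with 3 of 18 mitosis genes (16.7%), 7 of 11 S phase genes (63.6%) and 7.79% of all genes with a promoter. CCAAT was found for 16 mitosis genes (88.9%) and 9 S phase genes (81.8%), against 41.1% of all genes with a promoter. Neither of the 2 G1/S genes with a promoter had any of these letters.

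The 120 bases before the start are given for 3 mitosis genes, Top2a at chr11:99024190-99024309, Cdk1 at chr10:69352913-69353032 and Cdc20 at chr4:118437344-118437463, and for 2 S phase genes, Mcm6 at chr1:128359706-128359825 and Rrm1 at chr7:102441575-102441694. Rrm1 lies on the plus strand and the other 4 on the minus strand, and each is written 5′ to 3′ in the direction of the gene. Capitals mark the motifs, read on either strand: TTTGAA or TTCAAA for the CHR, CCAAT or ATTGG for the CCAAT box, and TTGGCGC or TTCCCGC for E2F. The first 3 hold CHR and CCAAT letters, and the last 2 hold E2F and CCAAT letters.
Top2a: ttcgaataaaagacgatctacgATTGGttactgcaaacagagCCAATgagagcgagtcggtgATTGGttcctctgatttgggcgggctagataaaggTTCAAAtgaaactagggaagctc
Cdk1: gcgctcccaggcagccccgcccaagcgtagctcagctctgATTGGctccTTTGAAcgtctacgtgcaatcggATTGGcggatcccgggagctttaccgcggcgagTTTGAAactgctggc
Cdc20: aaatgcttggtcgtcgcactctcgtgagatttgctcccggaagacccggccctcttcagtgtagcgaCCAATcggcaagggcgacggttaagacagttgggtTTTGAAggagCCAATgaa
Mcm6: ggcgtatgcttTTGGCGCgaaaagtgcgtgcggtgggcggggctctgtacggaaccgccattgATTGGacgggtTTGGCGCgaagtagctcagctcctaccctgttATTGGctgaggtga
Rrm1: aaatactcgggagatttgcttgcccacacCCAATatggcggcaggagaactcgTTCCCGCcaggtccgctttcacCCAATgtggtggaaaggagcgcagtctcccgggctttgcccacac

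The libraries held 6632645 to 13350119 counts, of which the mitochondrial rRNAs took 46.3% to 75.3%, so that 1852065 to 5096066 counts remained for all other genes. Levels are given as CPM, counts scaled to library size, with library size adjusted for library composition by the trimmed mean of M-values (TMM). Cell cycle transcripts were sparse at this depth. Over the 6 libraries together a gene of the 40 had 35 to 2859 counts, with a median of 279, and 31 of the 40 had a mean below 10 CPM in both tissues. Only 5 had at least 50 counts in every library, and 12 fell below 10 counts in at least 1. The polyp library of mouse 1192 stands apart: it had counts for 12867 genes, the other 5 for 15045 to 17301. In it 6 of the 40 genes had fewer than 10 counts, among them Birc5 with 0, Ccnb2 with 3, Bub1 with 6 and Cenpe with 9, where the surrounding tissue of that mouse had 44, 61, 64 and 96. Ccna2, with 258 counts in that polyp and 267 in its surrounding tissue, showed no such drop. Values without mouse 1192 are given where leaving it out moved a log2 fold change by over 1.5 times.

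None of the 38 genes that could be tested was called between polyp and surrounding tissue, and the other 2, Ccne1 and E2f1, had too few counts for a test. After a filter on low counts, with the mouse as a block, edgeR's quasi-likelihood test with Benjamini-Hochberg adjustment over all 10960 tested genes called 0 higher and 0 lower at an adjusted p under 0.05. Over the whole table the same test called 303 genes (2.76%), 189 higher and 114 lower in polyps. DESeq2, which called 541 of 10535 genes (5.14%), and limma-voom, which called 487 of 10960 (4.44%), also called 0 of these genes. At an unadjusted p under 0.05 edgeR had 3 of the 38 (Top2a, Kif23 and Mcm3, 7.89%), against 14.6% of all tested genes, DESeq2 had 2 and limma-voom had 5. The lowest edgeR adjusted p among the 38 was 0.309. The edgeR share at an unadjusted p under 0.05 rests on 3 genes, and its gap to the table as a whole was not tested. For DESeq2 and limma-voom the share of all genes at that p is not given here.

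The direction leaned towards lower levels in polyps in mice 1192 and 1199 but not in mouse 1119, without a call. In mice 1119, 1192 and 1199, 16, 28 and 24 of the 38 were lower in the polyp. The median log2 differences were 0.19, -0.64 and -0.30, and over all tested genes 0.014, -0.023 and 0.022. The log2 fold change of polyp over surrounding tissue was below 0 in 26 of the 38 tested genes (68.4%), with a median of -0.43, while over all tested genes it was below 0 in 51.6%, with a median of -0.02. In 8 of the 38 the polyp was lower in all 3 mice, where 18.6% of all tested genes were, and in 4 it was higher in all 3, where 19.7% were. The 3 polyps lay below all 3 surrounding samples for Top2a, Cdk1 and Mcm3 (8.58% of all tested genes) and above them for Aurka, Pcna and Ccnd2 (9.84% of all tested genes). These 3 of 38 in each direction are near the share in the whole table.

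**Figure D1:**
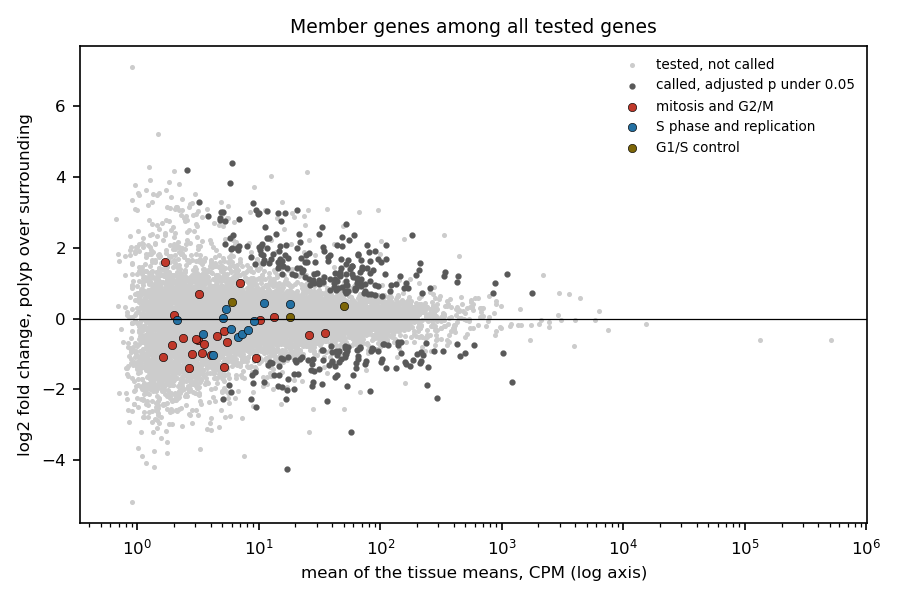
Log2 fold change of polyp over surrounding tissue (vertical axis) against the mean of both tissue means in CPM (horizontal log axis) for the 10960 tested genes. Grey points are genes not called, dark points the 303 called genes, and coloured points the 38 tested cell cycle genes by role; the coloured points lie among the grey ones and most have a mean below 10 CPM.

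The mitosis genes had the lowest values of the 3 roles, but edgeR called 0 of the 23, with 2 at an unadjusted p under 0.05. DESeq2 and limma-voom called 0 as well. Their median log2 fold change was -0.58, 18 of the 23 were below 0, and 5 were lower and 2 higher in the polyp of all 3 mice. Top2a encodes topoisomerase II alpha, which untangles DNA so that sister chromosomes can part. Its level in surrounding tissue was 27.2, 33.9 and 28.4 CPM in mice 1119, 1192 and 1199, and in the polyps 22.4, 23.9 and 18.6 CPM. The polyp was lower in each mouse and the tissues did not overlap, with means of 29.8 ± 3.57 and 21.6 ± 2.73 CPM (SD, n = 3). The log2 fold change was -0.46 ± 0.19 (SE), with a 95% interval of -0.89 to -0.03 and an edgeR adjusted p of 0.309. Every other setting tried also left Top2a lower in polyps, between -0.56 and -0.41, and uncalled.

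Mki67 encodes the Ki-67 protein, which coats mitotic chromosomes and is the usual stain for cycling cells. Its level was 26.5, 64.7 and 30.7 CPM in surrounding tissue and 35.3, 32.1 and 19.6 CPM in the polyps of mice 1119, 1192 and 1199. The polyp was thus the higher sample in mouse 1119 and the lower one in the others, and the largest gap was in mouse 1192, whose surrounding tissue had the highest value of all 6 libraries. The log2 fold change was -0.42 ± 0.27 (SE), with a 95% interval of -1.04 to 0.20 and an edgeR adjusted p of 0.557. Without mouse 1192 it was -0.13 and without mouse 1119 it was -0.85. Mki67 is described in full because it is the common proliferation label, although other mitosis genes had smaller p values.

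Among the kinesins and their partners in cell division the values went both ways. Kif23, a motor protein of the central spindle that is needed for cytokinesis, was at 3.79, 5.27 and 4.51 CPM in surrounding tissue and at 13.4, 10.4 and 4.69 CPM in the polyps of mice 1119, 1192 and 1199. Its polyp value was higher in all 3 mice, but by little in mouse 1199, where it lay within the range of the surrounding samples. The log2 fold change was 1.00 ± 0.42 (SE; 95% interval 0.04 to 1.95; edgeR adjusted p = 0.319), and without mouse 1119 it was 0.55. Prc1, which bundles microtubules in that same central spindle, was at 5.11, 9.26 and 5.86 CPM in surrounding tissue and at 3.87, 5.43 and 3.41 CPM in polyps. It was lower in the polyp of all 3 mice, with 1 polyp inside the surrounding range (-0.65 ± 0.38, SE; edgeR adjusted p = 0.509). Kif20a, a further kinesin of the central spindle, had a log2 fold change of -0.97 ± 0.64 (SE), which was -0.39 without mouse 1192, and was higher in the polyp of mouse 1199. Kif11, the motor that pushes spindle poles apart, had -0.03 ± 0.33 (SE; 0.17 without mouse 1192). Anln, which encodes the contractile ring protein anillin, had -0.34 ± 0.46 (SE; 0.096 without mouse 1192).

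The kinetochore genes were lower in 2 polyps and higher in the third. Cenpf, a large protein of the outer kinetochore, was at 7.86, 17.8 and 12.4 CPM in surrounding tissue and at 9.55, 2.8 and 5.97 CPM in the polyps of mice 1119, 1192 and 1199. Cenpe, the kinesin that moves chromosomes to the spindle equator, was at 4.45, 6.84 and 8.79 CPM in surrounding tissue and at 7.86, 0.74 and 2.28 CPM in polyps. Both were higher in the polyp of mouse 1119 and lower in the polyps of the other 2 mice. Their log2 fold changes were -1.13 ± 0.54 (SE; edgeR adjusted p = 0.395) and -1.38 ± 0.77 (SE; edgeR adjusted p = 0.487), and without mouse 1192 they shrank to -0.39 and -0.45. The checkpoint kinase Bub1 (-1.01 ± 0.92, SE) and the checkpoint protein Bub1b (-0.48 ± 0.47, SE) split between the mice in the same way, and Bub1 was at 0.055 without mouse 1192.

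Of the kinases and cyclins that start mitosis, most had intervals too wide to read a direction. Cdk1, the kinase that drives entry into mitosis, was at 1.99, 1.92 and 2.48 CPM in surrounding tissue and at 0.363, 1.23 and 1.85 CPM in polyps, from 3 to 27 counts a library (-1.08 ± 0.93, SE). Its partners Ccnb1 (-0.62 ± 0.57, SE) and Ccnb2 (-0.58 ± 1.25, SE) encode B-type cyclins, and Ccnb2 had a 95% interval from -3.44 to 2.27, the widest of the 38, and was at 0.92 without mouse 1192. Ccna2, the A-type cyclin of S phase and G2, had a value near 0 at 0.06 ± 0.26 (SE), with an interval of -0.53 to 0.65 that lies within a 2-fold difference either way, and it was -0.036 without mouse 1192. Plk1 (-0.72 ± 0.56, SE), a kinase of spindle assembly, and Foxm1 (-0.75 ± 0.91, SE), a transcription factor for G2 genes, were below 0, and without mouse 1192 they were at -0.34 and -1.33.

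Aurka and Aurkb encode kinases of one family with separate places of action, the spindle poles and the centromeres. Aurka was at 0.189, 1.35 and 1.35 CPM in surrounding tissue and at 1.93, 3.54 and 1.85 CPM in polyps, higher in all 3 mice with no overlap, but its value in the surrounding tissue of mouse 1119 rests on 2 counts, below the detection floor of 3. Its log2 fold change was 1.59 ± 0.96 (SE; 95% interval -0.60 to 3.79; edgeR adjusted p = 0.525). Aurkb was at -0.56 ± 0.69 (SE; -0.26 without mouse 1192) and lower in all 3 mice. Birc5, which encodes survivin, a partner of Aurkb at the centromere, had -1.41 ± 1.20 (SE), and -0.0993 without mouse 1192, whose polyp had no count, which allows a level of up to 3 counts. Tpx2, which activates Aurka on spindle microtubules, was at -1.04 ± 0.69 (SE), higher in the polyp of mouse 1119 and lower in the others, with -0.48 without mouse 1192 and -1.97 without mouse 1119. Cdc20 (0.68 ± 0.62, SE), an activator of the anaphase-promoting complex, and Ube2c (0.10 ± 0.86, SE), the ubiquitin-conjugating enzyme of that complex, were above 0, and without mouse 1192 Ube2c was at 0.65.

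**Figure D2:**
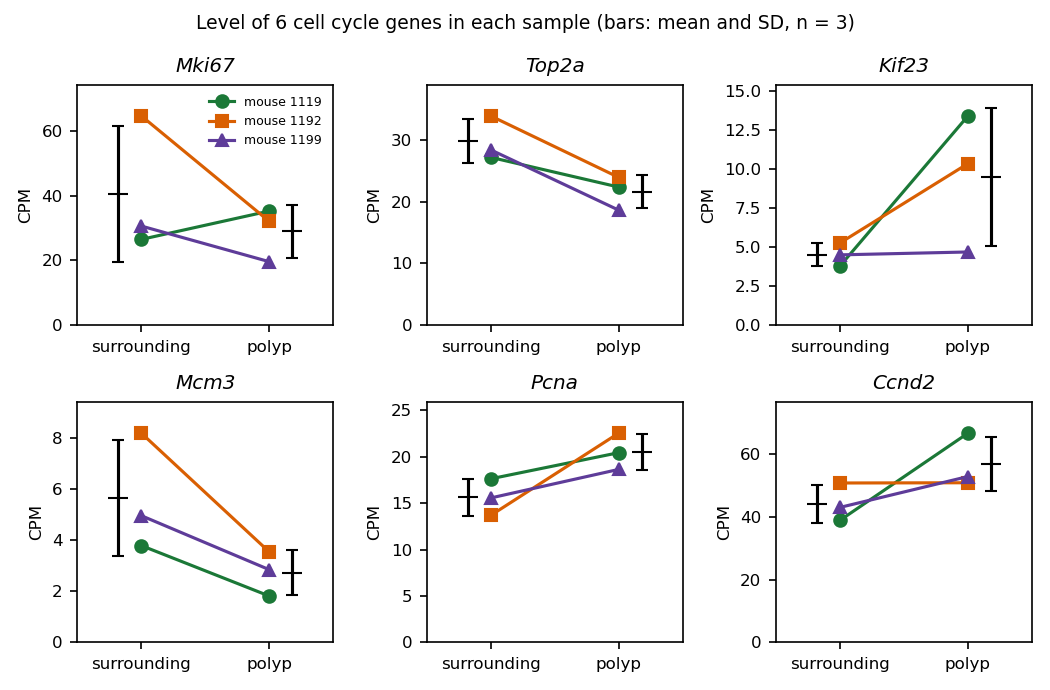
Level in CPM (vertical axis of each panel, from 0) of Mki67, Top2a, Kif23, Mcm3, Pcna and Ccnd2 in surrounding tissue and polyp; each coloured line joins the samples of 1 mouse, and black bars give mean and SD (n = 3). Top2a and Mcm3 are lower and Pcna higher in the polyp of each mouse with no overlap, Mki67 goes up in mouse 1119 and down in the others, and Kif23 differs little in mouse 1199; none of the 6 passed the test.

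The mice did not move together in the mitosis genes. In the polyp of mouse 1119, 14 of the 23 were higher than in its surrounding tissue, while in mice 1192 and 1199 only 5 were. Of the 15 that were lower in both 1192 and 1199, 10 were higher in 1119. In mice 1119, 1192 and 1199 the median of the 23 log2 differences was 0.19, -0.97 and -0.52. Summed over the 23 genes, the level went from 130.5 CPM in surrounding tissue to 161.5 in the polyp of mouse 1119, from 239.0 to 141.3 in mouse 1192 and from 158.2 to 108.1 in mouse 1199. The polyp held 1.24, 0.591 and 0.683 times the surrounding level. Surrounding samples spread more than polyps, 175.9 ± 56.4 against 137.0 ± 27.0 CPM (SD, n = 3), and the tissues overlapped. Without mouse 1192 the median log2 fold change of the mitosis genes was -0.26, and without mouse 1119 it was -0.85.

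Markers of B cells and germinal centres, where lymphocytes divide, had the same order of ratios across the mice. So did those of T cells, plasma cells, and macrophages and neutrophils, while the other marker lists did not. Yet the T cell sum was lower in every polyp, and the sums of plasma cells and of macrophages and neutrophils were higher in every polyp. Few orders are possible with so few mice, so a shared order says little. Of the 16 B cell markers only 2 had enough counts for a test, and 0 were called. The polyp of mouse 1192, with the lowest ratio, is also the library with counts for the fewest genes (12867). In it 11 of the 16 markers had no count, against 9 and 7 in the polyps of mice 1119 and 1199. Summed over the 16, the level went from 11.3 to 15.4 CPM in mouse 1119. It went from 17.4 to 4.69 CPM in mouse 1192 and from 22.5 to 12.9 CPM in mouse 1199. The polyp held 1.36, 0.270 and 0.574 times the surrounding level. The range was 11.3 to 22.5 CPM in surrounding tissue and 4.69 to 15.4 CPM in polyps. Of the 16 markers, 5 had no count in any polyp, among them Cd79a and Cd79b, which encode the signalling chains of the B cell receptor and had 2 to 12 counts in the surrounding samples. Over 11 T cell markers the sum was 4.34 to 11.5 CPM in surrounding tissue and 0.905 to 3.27 CPM in polyps. The part of lymphoid cells in the mitosis values was not tested.

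The S phase genes stayed close to level as a sum, while single genes pointed in different directions. None of the 12 passed the edgeR test, with 1 at an unadjusted p under 0.05, or was called by DESeq2 or limma-voom. Their median log2 fold change was -0.19, with 8 of 12 below 0, 3 lower in all 3 mice and 1 higher in all 3. Summed, they went from 84.6 to 82.9 CPM in mouse 1119, from 96.8 to 93.4 in mouse 1192 and from 80.9 to 79.8 in mouse 1199. The polyp was thus below its own surrounding tissue in each pair, by 1.95%, 3.51% and 1.41%, a paired gap that was not tested. The means were 87.4 ± 8.34 CPM in surrounding tissue and 85.4 ± 7.15 CPM in polyps (SD between mice, n = 3). Pcna was the largest term in that sum. In mice 1119, 1192 and 1199, 7, 8 and 6 of the 12 were lower in the polyp, with median log2 differences of -0.15, -0.41 and 0.011. In mouse 1192 Pcna went from 13.7 to 22.5 CPM and Rrm2 from 7.12 to 17.7 CPM, against those 8 lower genes. The level sum thus does not show that the single genes were level.

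Pcna and the helicase subunit Mcm3 had opposite signs. Pcna encodes the sliding clamp that holds DNA polymerases on their template. It was at 17.6, 13.7 and 15.6 CPM in surrounding tissue and at 20.4, 22.5 and 18.6 CPM in the polyps of mice 1119, 1192 and 1199. It was higher in each polyp with no overlap (0.40 ± 0.23, SE; 95% interval -0.12 to 0.93; edgeR adjusted p = 0.495; 0.20 without mouse 1192). Mcm3, a subunit of the replicative helicase, was at 3.79, 8.19 and 4.96 CPM in surrounding tissue and at 1.81, 3.54 and 2.84 CPM in polyps. It was lower in each polyp with no overlap (-1.03 ± 0.45, SE; 95% interval -2.06 to -0.0029; edgeR adjusted p = 0.342). Over the alternatives Mcm3 stayed between -1.15 and -0.97 and was called in none, with edgeR, DESeq2 or limma-voom adjusted p values of 0.204 to 0.638.

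Of the other 5 helicase subunits, which form a ring with Mcm3, 4 were also below 0, with smaller values. Mcm4 was at 5.30, 10.3 and 8.57 CPM in surrounding tissue and at 6.41, 4.36 and 5.69 CPM in polyps, higher in the polyp of mouse 1119 and lower in the others (-0.53 ± 0.40, SE; -0.18 without mouse 1192). Mcm6 was at 9.19, 9.11 and 6.31 CPM in surrounding tissue and at 8.46, 6.66 and 3.56 CPM in polyps, lower in all 3 mice with overlapping tissues (-0.44 ± 0.34, SE). Mcm7 was also lower in all 3 mice (-0.32 ± 0.31, SE). Mcm2 was at -0.44 ± 0.54 (SE; -0.86 without mouse 1192), and Mcm5, the only one of the 6 above 0, was at 0.28 ± 0.42 (SE; 0.55 without mouse 1192).

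Genes of nucleotide supply and of the start of replication had values on both sides of 0, and each 95% interval included 0. Rrm1 and Rrm2 encode the large and small subunits of ribonucleotide reductase, which makes deoxynucleotides. Rrm2 was at 10.6, 7.12 and 10.4 CPM in surrounding tissue and at 9.31, 17.7 and 11.5 CPM in polyps, and the polyp of mouse 1192 was the high sample (0.44 ± 0.36, SE; -0.06 without that mouse). Rrm1 was at -0.07 ± 0.30 (SE), with a 95% interval of -0.74 to 0.61, and at -0.18 without mouse 1192. Tyms, which makes thymidylate, was at -0.31 ± 0.45 (SE). Pola1, the catalytic subunit of polymerase alpha, was at 0.01 ± 0.51 (SE; 95% interval -1.15 to 1.17). Cdc6, which loads the helicase at origins, was at -0.03 ± 0.78 (SE; 95% interval -1.81 to 1.75). Without mouse 1192 Pola1 and Cdc6 were at 0.60 and 0.62. Both intervals include a 2-fold difference in either direction, so these values near 0 do not show equal levels.

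**Figure D3:**
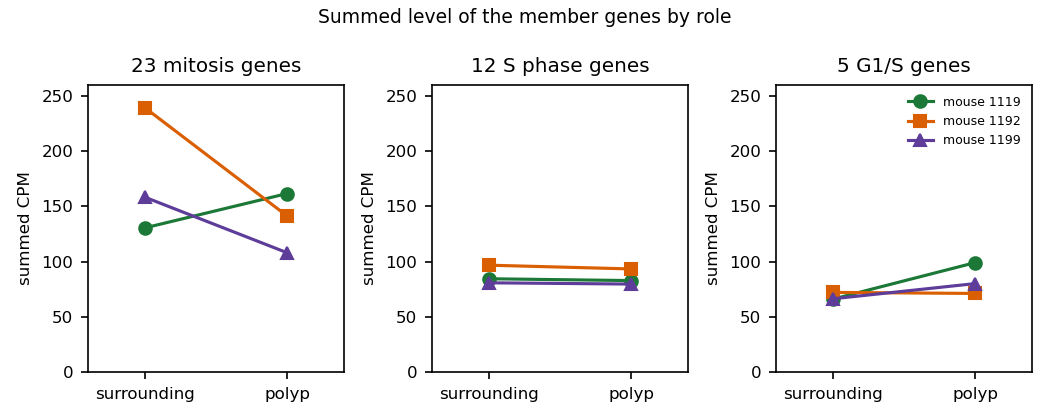
Summed level in CPM (vertical axis, from 0) of the 23 mitosis, 12 S phase and 5 G1/S genes in surrounding tissue and polyp, with 1 coloured line per mouse. The mitosis sum goes up in mouse 1119 and down in mice 1192 and 1199, and the S phase sum is nearly level in each mouse. The G1/S sum is higher in the polyps of mice 1119 and 1199, and Ccnd2 is its largest term in every library. In mouse 1119 Ccnd2 makes up 38.9 of 66.2 CPM in surrounding tissue and 66.7 of 99.1 CPM in the polyp.

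The G1/S genes were the only role with a median above 0, at 0.36 over 3 tested genes, and 0 of the 3 passed the edgeR test or had an unadjusted p under 0.05. Ccnd2, a D-type cyclin that starts the passage out of G1, was at 38.9, 50.8 and 43.1 CPM in surrounding tissue and at 66.7, 50.9 and 52.9 CPM in polyps. All polyps lay above all surrounding samples, in mouse 1192 by almost nothing (0.36 ± 0.19, SE; 95% interval -0.07 to 0.78; edgeR adjusted p = 0.448). Without mouse 1119 the value was 0.14. Ccnd1, the D-type cyclin best known as a Wnt target, was at 21.2, 13.5 and 17.6 CPM in surrounding tissue and at 21.5, 12.1 and 21.3 CPM in polyps. The 2 tissues overlapped almost fully (0.04 ± 0.23, SE; 95% interval -0.47 to 0.56; edgeR adjusted p = 0.953; 0.10 without mouse 1192).

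Of the E-type cyclins, which act with Cdk2 at the entry to S phase, Ccne2 was at 4.83, 6.34 and 3.61 CPM in surrounding tissue and at 9.91, 6.25 and 4.84 CPM in polyps (0.48 ± 0.39, SE; edgeR adjusted p = 0.654; 0.74 without mouse 1192). It was higher in the polyps of mice 1119 and 1199 and about level in mouse 1192. Ccne1 and E2f1 did not pass the filter on low counts and have no test. Ccne1 had 7, 10 and 2 counts in surrounding tissue and 5, 21 and 7 in polyps. E2f1, a transcription factor that activates S phase genes, had 6, 13 and 8 counts in surrounding tissue and 3, 4 and 1 in the polyps of mice 1119, 1192 and 1199. It was lower in each polyp, with the polyp counts around the detection floor of 3. Scaled to total counts without TMM, that floor is 0.225 to 0.452 CPM in these libraries, so it is not on the scale of the levels above.

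Per kilobase of exon, Pcna was the most abundant of the 40 in both tissues, at 6.51 CPM per kb in surrounding tissue and 8.55 in polyps. Ccnd2 came next, at 4.71 and 6.04 CPM per kb. Mki67 followed in surrounding tissue at 4.04 CPM per kb and Rrm2 in polyps at 4.63, where Mki67 was at 2.88. These levels differ between genes also through the annotated exon length, which here counts all isoforms of a gene.

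How far the data limit a difference varied between genes. For 7 of the 38 genes (18.4%) the whole 95% interval lay within a 2-fold difference in either direction, as it did for 40.4% of all tested genes. These were Top2a, Ccna2, Kif11, Pcna, Rrm1, Ccnd1 and Ccnd2. A rise of 2-fold or more in polyps lay outside the interval for 23 of the 38, and a fall of 2-fold or more for 13. For the remaining genes the interval includes a 2-fold difference in at least 1 direction, so the absence of a call does not show that their levels were the same.

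**Figure D4:**
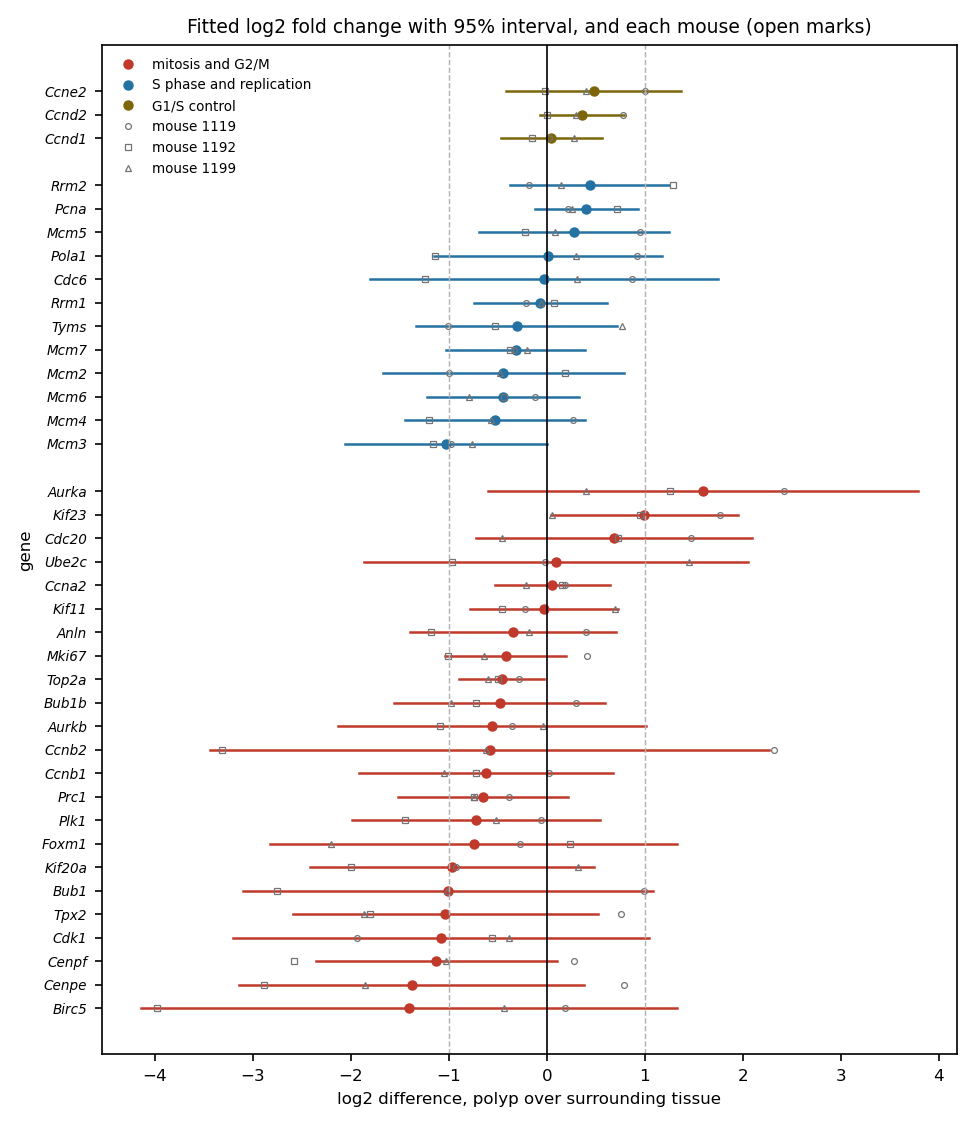
Fitted log2 fold change of polyp over surrounding tissue (filled points, coloured by role) with its 95% interval (lines) for the 38 tested genes; open grey marks are the differences in single mice, and dashed lines mark a 2-fold difference. Most intervals cross 0, those of Top2a, Kif23 and Mcm3 only just exclude it, and the open circles of mouse 1119 lie to the right of the other mice for most mitosis genes.

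Values were set against promoter motifs for the CHR letters only, over the tested genes with a promoter in the table. The 15 tested genes with the CHR letters had a median log2 fold change of -0.44 and the 14 with a promoter but without these letters had -0.31, which is a description with no test.

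Wider lists of the same pathways gave 0 calls with edgeR as well, and with DESeq2 and limma-voom except for Plk3, a kinase of the list of inhibitors. Of 54 other mitosis genes 45 were tested, with a median log2 fold change of -0.26 and 0 at an unadjusted edgeR p under 0.05. The 2 with the smallest p were Spc25, a subunit of the Ndc80 complex of the kinetochore (-0.87 ± 0.40, SE; edgeR adjusted p = 0.366), and Hjurp, the chaperone of the centromeric histone (-0.35 ± 0.17, SE; edgeR adjusted p = 0.413). Of 52 other replication genes 41 were tested, with a median of -0.27 and 3 at an unadjusted edgeR p under 0.05. Their 2 smallest p values belonged to genes with higher levels in polyps. Dut, which removes dUTP from the nucleotide pool, was at 3.60, 4.49 and 4.28 CPM in surrounding tissue and at 8.22, 10.9 and 10.1 CPM in polyps (1.24 ± 0.34, SE; edgeR adjusted p = 0.110). Prim2, the large subunit of DNA primase, was at 5.68, 2.06 and 3.83 CPM in surrounding tissue and at 10.5, 6.0 and 11.5 CPM in polyps (1.32 ± 0.36, SE; edgeR adjusted p = 0.115). Both were higher in all 3 mice with no overlap, and neither was called. The third gene, Mcm10, went the other way, lower in all 3 mice with no overlap (-1.49 ± 0.64, SE; edgeR adjusted p = 0.329). Of the 41, 12 were lower and 5 higher in all 3 mice, against 18.6% and 19.7% of all tested genes.

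Regulators around G1 were uncalled by edgeR too. All 22 other G1/S regulators were tested, with a median log2 fold change of -0.02 and 2 at an unadjusted edgeR p under 0.05. The smallest p values were those of Cdk6, the kinase partner of D-type cyclins, at 3.41, 4.49 and 3.16 CPM in surrounding tissue and 6.04, 8.88 and 8.11 CPM in polyps (1.04 ± 0.38, SE; edgeR adjusted p = 0.238), and of E2f2 (0.62 ± 0.24, SE; edgeR adjusted p = 0.287). Of 20 cyclin-dependent kinase inhibitors and anti-proliferative genes 15 were tested, with a median of 0.18 and 2 at an unadjusted edgeR p under 0.05. Plk3, a kinase induced by stress, was at 8.81, 9.61 and 23.4 CPM in surrounding tissue and 17.3, 25.3 and 34.8 CPM in polyps (0.98 ± 0.24, SE; edgeR adjusted p = 0.0810), higher in all 3 mice with overlapping tissues. Plk3 was called by limma-voom (adjusted p = 0.0377) and by edgeR with no filter on low counts (0.00609) or a mean of at least 5 CPM (0.0415), and the adjusted p was 0.200 to 0.254 when 1 mouse was left out. Cdkn2b, the inhibitor p15 of Cdk4 and Cdk6, was at 4.74, 6.05 and 7.21 CPM in surrounding tissue and 13.5, 11.3 and 10.1 CPM in polyps, with no overlap (0.97 ± 0.34, SE; edgeR adjusted p = 0.209).

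Levels of cell type markers also differed between the tissues, which in bulk tissue cannot be split into cell number and RNA per cell. Epithelial markers, 3 of 12 of which rose, summed to 4155 to 6991 CPM in surrounding tissue and 6676 to 8719 CPM in polyps. Fibroblast markers, 7 of 9 of which rose, summed to 78.3 to 183.7 CPM in surrounding tissue and 303.5 to 677.8 CPM in polyps. Of the colonocyte markers 6 of 10 fell, with sums of 10610 to 13812 CPM in surrounding tissue and 5470 to 9768 CPM in polyps, and 2 of 7 tested smooth muscle markers fell. The 10 crypt stem cell genes, of which 7 were tested and 0 called, summed to 624.2 to 726.7 CPM in surrounding tissue and 681.3 to 762.2 CPM in polyps, but Prom1 alone made up means of 646.0 and 667.3 CPM of that. Lgr5, a Wnt target that marks crypt stem cells, had 12, 8 and 5 counts in surrounding tissue and 1, 0 and 2 in the polyps of mice 1119, 1192 and 1199, and was too sparse for a test. Axin2 (-1.70), Znrf3 (-1.12) and Smoc2 (-1.81, log2 fold changes) were also lower in all 3 polyps, with edgeR adjusted p values of 0.422, 0.431 and 0.576. The list did not fall as a whole: of the 7 tested, 4 were below 0 and 3 above, with a median of -0.30. In 1 of the 7 the polyp was higher in all 3 mice. The part of these shifts in the cell cycle values was not tested.

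Some of the 40 genes share sequence with others. For 7 of them (Ccna2, Ccnd1, Ccne2, Cdc20, Kif20a, Mcm7 and Prc1) exon bases overlap a gene of at least 100 counts on the opposite strand. Whether counting used strand is not given in the sources used here, so their reads may not have been told apart from those of the neighbour. The listed pseudogene copies of Ccnb1, Ccnb2 and Pcna had 0 to 4 counts in any library.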

How the data were processed

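RNA from polyp and surrounding cecum of 3 HBUS mice was, per the labels' protocols, treated with MICROBEnrich, a kit that removes mammalian RNA, and depleted of bacterial rRNA before paired-end library preparation. It appears, without certainty, that the counted reads come from this treated RNA. The authors deposited raw counts per gene, with no normalization per the file headers and values. The submitters' processing notes name TopHat2 2.0.7, Bowtie 0.12.9 and HTSeq 0.5.3p9. Settings, strand and genome build are not given in these sources, so the only coordinates printed are those of RefSeq promoters. Symbols and exon lengths came from GENCODE M21, promoters from RefSeq (GRCm38.p6).

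Genes were tested two-sided with edgeR 4.0.16 (R 4.3.3; quasi-likelihood, robust, TMM, filterByExpr with a minimum count of 10), with the mouse as a block and Benjamini-Hochberg adjustment, called under 0.05. The common biological coefficient of variation was 34.3%, with 2 residual degrees of freedom. Intervals use the moderated t quantile at 95%. Log2 differences per mouse use a prior count of 2. The pairing comes from the mouse number in each title; deviations of same-mouse samples correlated at 0.0719, 0.127 and 0.159. No identifiers of molecules were used, so the floor of 3 counts covers counting error only. The procedure was also run on simulated counts with known changes. These held no differences between mice, and the share of changes recovered is not given here.

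The 40 genes, their roles, the motifs and the other lists were chosen with earlier results of these data known. Values per sample are given for up to 5 genes a role with the smallest p, and the 2 genes with the smallest p of each other list are named. Mki67, Cdk1, Aurka, Ccne1, E2f1, Mcm10 and the crypt stem cell genes were added after their values were seen. The printed promoters are the first in list order that hold the motifs of their role within the 120 bases shown. Alternatives were no block, other normalizations and filters, leaving out genes above 1% of a library, DESeq2 1.42.0, limma-voom (limma 3.58.1) and leaving out each mouse.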

Additional observations from a re-analysis of the deposited data

How the results depend on the processing

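The number of the 40 genes called was 0 in either direction under all 11 alternatives. The lowest adjusted p under any of them was 0.0827 (Cenpf, edgeR with no filter on low counts). The median log2 fold change kept its sign in each role under all 11. The number of genes called over the whole table moved more: 303 became 87 without the replicate block for the paired samples, 753 with no filter on low counts, 541 with DESeq2 and 487 with limma-voom, and it ranged from 83 (without mouse 1119) to 281 (without mouse 1192) when 1 mouse was left out. The block changed no call among the 40.

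Of 400 recomputed log2 fold changes of single genes, 23 turned direction, in 13 genes, and in 10 of these only when a mouse was left out; 25 genes held theirs. Ube2c was at -0.35 with limma-voom. Pola1 was at -0.031 without the replicate block, -0.025 with upper-quartile normalization, -0.0089 with a mean of at least 5 CPM and -0.23 with limma-voom. Cdc6 was at 0.23 without the replicate block and 0.19 with limma-voom. With 1 mouse left out, the lowest and highest values were -2.22 and 0.92 for Ccnb2, -0.036 and 0.16 for Ccna2, -2.14 and 0.055 for Bub1, -0.37 and 0.17 for Kif11, -0.56 and 0.65 for Ube2c and -0.74 and 0.10 for Anln. They were -0.090 and 0.55 for Mcm5, -0.18 and 0.0032 for Rrm1, -0.064 and 0.75 for Rrm2, -0.80 and 0.076 for Tyms, -0.48 and 0.60 for Pola1, -0.58 and 0.62 for Cdc6 and -0.082 and 0.10 for Ccnd1. The cause was not tested. Leaving out a mouse leaves fewer samples, and 31 of the 40 genes had a mean below 10 CPM in both tissues, so depth limits what can be said of them.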
